A study of Mus musculus with 6 samples.

Results

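The genes described are 38 genes of the cell division cycle, chosen by symbol from a list of mitosis and DNA replication genes, G1 cyclins with E2F1, and inhibitors of cyclin-dependent kinases (CDKs). All 38 were among the 24411 genes of the deposited count table, each in 1 row. They were measured in Achilles tendons from C57BL/6 animals, 18 weeks old, in 3 libraries of the genotype Scx-Cre/Piezo1 GOF (Piezo1 GOF) and 3 libraries of wild type (WT). Piezo1 is a mechanically gated cation channel, GOF stands for gain of function, and Scx-Cre places Cre recombinase under control of Scx, a gene for a transcription factor of tendon cells, so that recombination is expected in cells with a history of Scx expression. The label of the WT libraries names no transgene, and the labels do not say whether each library came from a separate animal or from pooled animals. The p-values therefore reflect the spread among 6 libraries, and that spread may be technical. The question is whether transcripts of dividing cells differed between the genotypes.

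As background, a cell that leaves quiescence makes D-type cyclins, which with their kinases inactivate the retinoblastoma protein and release E2F transcription factors. E2F1 and its relatives then switch on cyclin E and the enzymes of DNA replication, and later the mitotic genes follow through the MuvB complex with B-MYB and FOXM1. CDK inhibitors of the INK4 and CIP/KIP families hold cells out of the cycle. Adult tendon cells are known to divide rarely.

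Total counts per library were 8131514 to 12631661 in Piezo1 GOF and 8519514 to 17180848 in WT, after rounding of the expected counts. All 12 tenocyte markers were detected in every library and together took 2.78%, 5.61% and 3.51% of counts in Piezo1 GOF replicates 1 to 3 and 1.65%, 0.470% and 0.984% in WT replicates 1 to 3. The 20 skeletal muscle markers took 7.56%, 2.78% and 7.02% in Piezo1 GOF and 8.83%, 16.4% and 13.9% in WT, so this share was lower in all 3 Piezo1 GOF libraries. The 15 macrophage markers took 0.0840% to 0.118% in Piezo1 GOF and 0.0224% to 0.0372% in WT. Groups also did not overlap for markers of neutrophils and myeloid precursors (9 genes, 0.00486% to 0.0136% in Piezo1 GOF and 0.000507% to 0.00183% in WT, with 2 to 6 of them at 0), osteoblasts (9 genes, 0.169% to 0.355% in Piezo1 GOF and 0.00836% to 0.0446% in WT) and chondrocytes (10 genes, 0.0206% to 0.0320% in Piezo1 GOF and 0.00645% to 0.0109% in WT). Markers of satellite cells and myoblasts were lower in every Piezo1 GOF library (9 genes, 0.00585% to 0.00899% in Piezo1 GOF and 0.0111% to 0.0148% in WT). Endothelial, erythroid and adipocyte markers overlapped. None of the 10 lymphocyte markers in the table passed the count filter, and 3 to 8 of them were at 0 in each library. In bulk tissue, fewer cells of a type and less RNA per cell cannot be told apart.

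Of the 38 genes, 30 passed the filter on low counts, which in effect asks for at least 1.06 CPM (a counts-per-million value) in 3 libraries. The other 8 were 7 mitosis genes, Ccnb1, Ccnb2, Cdk1, Birc5, Aurka, Aurkb and Bub1, and the cyclin E gene Ccne1. All 10 replication genes and all 3 inhibitors passed. Each log2 fold change sets Piezo1 GOF over WT and carries its standard error (SE), and levels are CPM after TMM scaling.

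None of the 30 tested genes differed between the genotypes past an adjusted p of 0.05 over all genes by edgeR's quasi-likelihood test. In that test 2 of 13466 genes passed, or 0.0149%, so the absence of calls among 30 genes is what the background gives. At an unadjusted p under 0.05, 3 of the 30 were higher in Piezo1 GOF and 0 lower, namely Cdkn2c, Bub1b and Ccna2, against 10.2% higher and 9.59% lower of all tested genes. The same 3 were the tested genes whose groups did not overlap, beside 13.6% of all genes higher and 12.1% lower without overlap. Of these, Bub1b passed the filter through the Piezo1 GOF libraries alone, with 0 WT libraries over the cutoff. Its direction was therefore a condition of being tested. DESeq2 called 1 of the 36 members for which it gave an adjusted p, Cdkn2c, against 5.98% of all genes. The share of members that stood apart was near or under the background by each of these measures. The median log2 fold change was 0.21 over the 30 genes and -0.0045 over all tested genes, and 20 of the 30 were positive, against 49.7% of all tested genes. Without Piezo1 GOF replicate 3 the median of the 30 was 0.0019 and 15 were positive.

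**Figure D1:**
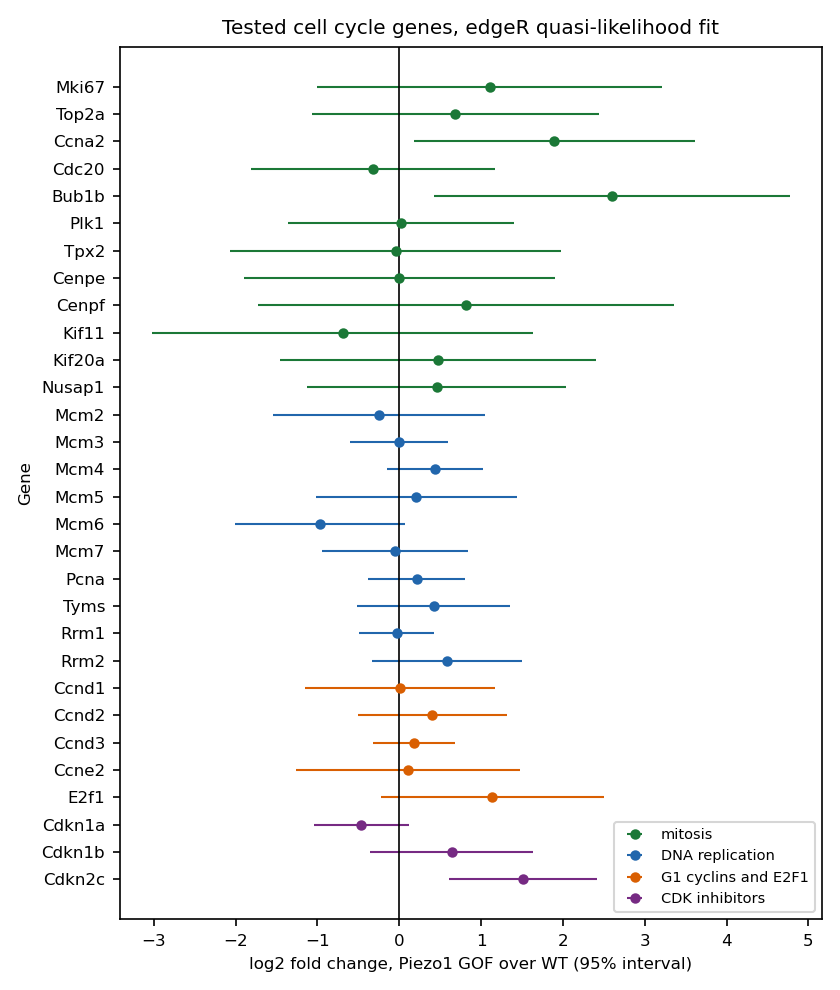
Log2 fold change (Piezo1 GOF over WT) of the 30 tested genes on the horizontal axis, with bars for the 95% interval of the edgeR fit and colours for the gene group. The intervals of Cdkn2c, Bub1b and Ccna2 lie above 0 before adjustment for the 13466 genes tested, and the mitosis genes have the widest intervals. Bub1b passed the count filter through Piezo1 GOF libraries alone.

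The mitosis genes were close to the counting limit in both genotypes, and 1 mutant library held more of them than any other. The 19 genes together gave 28.9, 14.6 and 66.8 CPM without TMM scaling in Piezo1 GOF replicates 1 to 3 and 23.1, 13.2 and 24.7 in WT replicates 1 to 3. Piezo1 GOF replicate 3 stood apart, with an exact binomial 95% interval of 62.4 to 71.5, while Piezo1 GOF replicate 2 at 12.2 to 17.3 lay beside WT replicate 2 at 11.5 to 15.05. These intervals cover counting error only. Of the 19 genes, 10 had their highest CPM in Piezo1 GOF replicate 3 and 9 had their lowest in WT replicate 2, the library with the most muscle transcripts. Without Mki67, the gene with the most counts of the 19, the sums were 24.6, 13.4 and 49.2 in Piezo1 GOF and 20.1, 12.4 and 18.5 in WT. The median log2 fold change of the 12 tested mitosis genes was 0.47, and -0.15 without Piezo1 GOF replicate 3. The macrophage share was also higher in all 3 Piezo1 GOF libraries, at 0.0840%, 0.117% and 0.118% in Piezo1 GOF and 0.0372%, 0.0224% and 0.0356% in WT. The 8 adipocyte markers were highest in Piezo1 GOF replicate 3, at 0.151%, 0.209% and 0.324% in Piezo1 GOF and 0.221%, 0.210% and 0.116% in WT. The part of these cell types, and of the others whose markers differed, in the mitosis values was not tested. With the skeletal muscle score as a covariate, the median of the mitosis genes was 0.77. The muscle share did not overlap between the genotypes, so here and below this fit cannot tell muscle content and genotype apart.

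**Figure D2:**
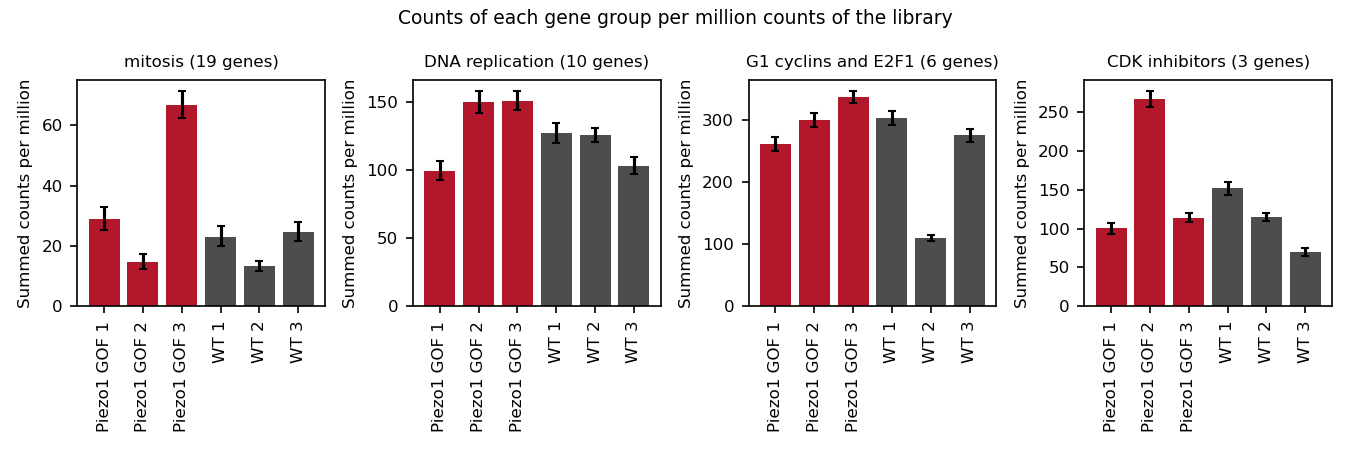
Summed CPM of each gene group, without TMM scaling (vertical axes, from 0), by library, with Piezo1 GOF in red and WT in grey and bars for exact binomial 95% intervals. The mitosis sum is highest in Piezo1 GOF replicate 3 (66.8), the sum of the G1 cyclins and E2F1 is lowest in WT replicate 2 (109), and the inhibitor sum is highest in Piezo1 GOF replicate 2 (267).

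Mki67, which encodes the Ki-67 protein of the chromosome surface, was at 4.55, 1.10 and 16.5 CPM in Piezo1 GOF replicates 1 to 3 and at 2.79, 0.894 and 6.90 CPM in WT replicates 1 to 3. The groups overlapped, and replicate 3 was the highest library of each genotype. Its log2 fold change was 1.11 ± 0.93 (SE; edgeR adjusted p = 0.532), and -0.29 without that library. Top2a, the topoisomerase that untangles replicated chromosomes, was at 1.56, 1.71 and 4.89 CPM in Piezo1 GOF and at 1.93, 0.383 and 2.94 CPM in WT. Its log2 fold change was 0.68 ± 0.78, and -0.069 without Piezo1 GOF replicate 3.

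Ccna2 and Bub1b were the mitosis genes higher in every Piezo1 GOF library than in every WT library. Ccna2, cyclin A2 of S phase and G2, had 2.86, 1.40 and 4.74 CPM in Piezo1 GOF replicates 1 to 3, against 1.07, 0.192 and 1.24 CPM in WT replicates 1 to 3. The gap between the groups was small, since Piezo1 GOF replicate 2 lay close to WT replicate 3. The log2 fold change was 1.90 ± 0.76 (edgeR adjusted p = 0.225; 0.202 to 0.465 without each library in turn). Ccna2 shares 510 bases, or 12.5% of its exonic length, with Exosc9 on the opposite strand. Its expected counts were not whole in any library, and the strand setting of the counting is not given in the sources used here, so its level is uncertain.

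Bub1b, which encodes the spindle checkpoint kinase BUBR1, had 14, 24 and 28 counts in Piezo1 GOF replicates 1 to 3, against 3, 0 and 7 counts in WT replicates 1 to 3. On the CPM scale these were 1.82, 2.41 and 2.08 in Piezo1 GOF and 0.322, 0 and 0.792 in WT. It passed the count filter through the 3 Piezo1 GOF libraries and 0 WT libraries, so a difference in that direction was a condition of being tested. The log2 fold change was 2.60 ± 0.96 (edgeR adjusted p = 0.201; 0.215 to 0.425 without each library in turn). Unlike Mki67 it was not led by Piezo1 GOF replicate 3. Its log2 fold change was 2.60 without that library, and 1.90 to 3.87 without each library in turn. Those fits kept the genes that passed the filter in the main fit, so they cannot lift the condition set by the filter.

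The 7 mitosis genes under the filter had 22 to 84 counts each over all 6 libraries. The B-type cyclins activate the mitotic kinase. Ccnb1 had 5, 0 and 38 counts in Piezo1 GOF replicates 1 to 3 and 2, 1 and 1 counts in WT replicates 1 to 3. Ccnb2 had 24, 1 and 37 counts in Piezo1 GOF and 2, 0 and 2 counts in WT. Piezo1 GOF replicates 1 and 3 held nearly all of these counts for Ccnb2 and replicate 3 held most of those for Ccnb1, while replicate 2 was at the level of WT. DESeq2, run without that filter, put Ccnb2 at 3.86 ± 1.36 (DESeq2 adjusted p = 0.0654) and Ccnb1 at 3.19 ± 1.57 (DESeq2 adjusted p = 0.228). Neither passed. Birc5 went the other way at -1.77 ± 2.13, with no adjusted p. Cdk1, the mitotic kinase itself, had 8, 5 and 47 counts in Piezo1 GOF and 9, 5 and 4 counts in WT. Aurkb, the kinase of the chromosomal passenger complex, had 7, 8 and 42 counts in Piezo1 GOF and 1, 0 and 15 counts in WT. Both kinases were highest in Piezo1 GOF replicate 3, and for Cdk1 the other 5 libraries had 4 to 9 counts. Bub1, another checkpoint kinase, was at 0 in 4 of the 6 libraries, with 17 counts in Piezo1 GOF replicate 3 and 6 in WT replicate 3.

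Birc5 and Aurka had counts in WT replicate 2 as well. Birc5, the survivin subunit of the passenger complex, had 0, 0 and 5 counts in Piezo1 GOF and 5, 12 and 0 counts in WT. Aurka, the kinase of the spindle poles, had 3, 4 and 37 counts in Piezo1 GOF and 4, 28 and 8 counts in WT. Aurka was highest in Piezo1 GOF replicate 3, followed by WT replicate 2, and Birc5 was highest in WT replicate 2. At a count of 0, a library of this depth allows up to 3 counts, which is 0.192 to 0.390 CPM.

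The other tested mitosis genes had overlapping groups and log2 fold changes between -0.69 and 0.82. The kinesin gene Kif11, whose motor separates the spindle poles, had the lowest value at -0.69 ± 1.03, with 0.390, 0 and 2.15 CPM in Piezo1 GOF and 1.18, 1.47 and 1.70 CPM in WT. The Kif11 value was -2.93 without Piezo1 GOF replicate 3 (edgeR adjusted p = 0.319) and -0.12 without Piezo1 GOF replicate 2. Kif11 had 3 WT libraries and 1 Piezo1 GOF library over the cutoff of the count filter, so the filter could favour a value on that side. Cdc20, which activates the anaphase-promoting complex, was at -0.32 ± 0.66, and the kinetochore genes Cenpe and Cenpf were at -0.00067 ± 0.84 and 0.82 ± 1.12. The polo kinase gene Plk1 was at 0.02 ± 0.61, the spindle assembly factor genes Tpx2 and Nusap1 at -0.05 ± 0.89 and 0.46 ± 0.70, and the kinesin gene Kif20a at 0.48 ± 0.85. Kif20a shares 29.3% of its exonic length with Cdc23 on the opposite strand and had counts that were not whole in every library, so its level is uncertain. The 95% intervals of all 12 genes reached at least 1.17 on the log2 scale, so a level more than 2-fold higher in the mutant lay within each of them.

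**Figure D3:**
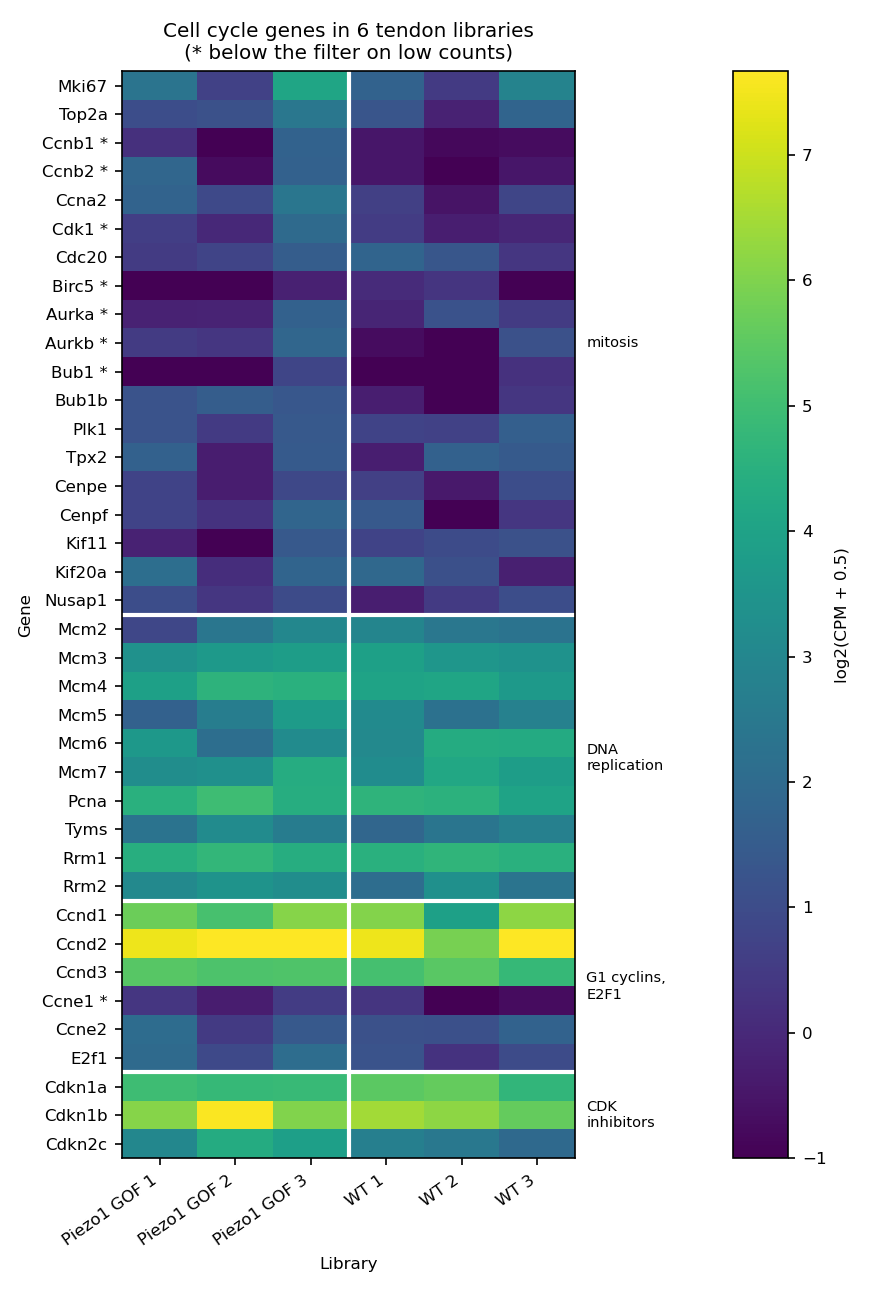
Level of the 38 genes in each library as log2(CPM + 0.5), by gene group from top to bottom, with Piezo1 GOF libraries left of WT libraries and an asterisk at genes under the count filter. The mitosis block is dark in most libraries and brightest in Piezo1 GOF replicate 3, and Ccnd2 and Cdkn1b are the brightest rows.

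The promoters of these genes are shown because mitosis and replication genes are known to carry different combinations of short motifs. Of the 38 genes, 30 had entries in the RefSeq promoter table (GRCm38.p6), with 34 transcription starts. The 250 bases before each start were searched on both strands for the cell cycle homology region (CHR, TTTGAA or TTCGAA), the CCAAT box bound by NF-Y, and the E2F site (TTTCCCGC, TTTCGCGC, TTTGCCGC or TTTGGCGC). The CHR was found in 7 of 15 mitosis promoters (46.7%), 2 of 10 replication promoters (20.0%) and 17.1% of all 32851 promoters. CCAAT was found in 13 of 15 mitosis promoters (86.7%), 9 of 10 replication promoters and 33.8% of all. E2F letters were found in 1 of 15 mitosis promoters (6.67%), 3 of 10 replication promoters and 1.86% of all. Among the 4 starts of the G1 cyclins and E2F1 and the 5 starts of the inhibitors, each group had 1 with CCAAT and 0 with the other motifs. These are letter matches, counted as a description and not tested. The windows below are 110 bases each, 5′ to 3′ in the direction of the gene, with all matches in capitals.
Mki67: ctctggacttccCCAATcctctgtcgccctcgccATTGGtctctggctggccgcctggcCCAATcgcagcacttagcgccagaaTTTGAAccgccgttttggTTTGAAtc
Top2a: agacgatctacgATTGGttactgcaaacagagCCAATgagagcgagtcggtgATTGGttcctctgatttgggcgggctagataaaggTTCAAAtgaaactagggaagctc
Cdk1: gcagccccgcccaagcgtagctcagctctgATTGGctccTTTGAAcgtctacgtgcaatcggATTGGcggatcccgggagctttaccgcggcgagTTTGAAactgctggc
Mcm6: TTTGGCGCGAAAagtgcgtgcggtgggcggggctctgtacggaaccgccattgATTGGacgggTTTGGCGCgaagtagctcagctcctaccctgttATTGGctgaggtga
Cdkn2c: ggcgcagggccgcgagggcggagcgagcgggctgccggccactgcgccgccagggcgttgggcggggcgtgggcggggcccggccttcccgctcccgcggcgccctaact

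The Mki67 window (chr7:135716470-135716579, minus strand) spans bases -200 to -91 from the start and holds 3 CCAAT boxes and 2 CHRs. The Top2a (chr11:99024190-99024299, minus) and Cdk1 (chr10:69352913-69353022, minus) windows end at the start and hold 3 CCAAT boxes with 1 CHR and 2 CCAAT boxes with 2 CHRs. The Mcm6 window (chr1:128359706-128359815, minus) holds 3 E2F matches, of which the first 2 overlap and are printed as 1 run of capitals, and 2 CCAAT boxes. The Cdkn2c window (chr4:109666757-109666866, minus), before the upstream of its 2 RefSeq starts, holds none of the letters searched.

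**Figure D4:**
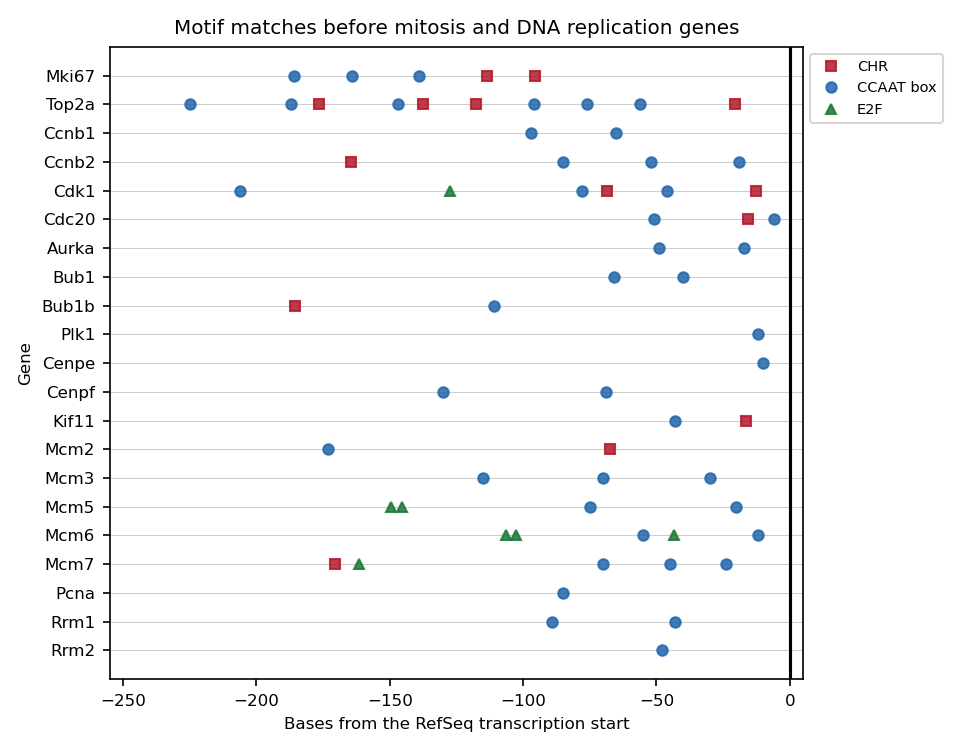
Position of each CHR (red squares), CCAAT box (blue circles) and E2F match (green triangles) in bases from the RefSeq start, for the mitosis and DNA replication genes that hold at least 1 match. CCAAT boxes occur in every row, CHRs mostly in the mitosis genes, and E2F matches in Cdk1, Mcm5, Mcm6 and Mcm7.

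The DNA replication genes were detected in every library, and their levels overlapped between the genotypes. Together the 10 genes gave 99.4, 149.8 and 150.6 CPM without TMM scaling in Piezo1 GOF replicates 1 to 3 and 126.8, 125.3 and 103.2 in WT replicates 1 to 3. The groups overlapped, and the excess of Piezo1 GOF replicate 3 in mitosis genes was not repeated here, since replicate 2 was as high. The median log2 fold change was 0.10, with 5 genes positive and 5 negative, against 49.7% positive of all tested genes. Groups did not overlap for 0 of the 10, beside 13.6% of all genes higher and 12.1% lower.

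Rrm1 had the smallest SE of the 10. Rrm1, the large subunit of ribonucleotide reductase, was at 21.2, 26.0 and 20.8 CPM in Piezo1 GOF and at 22.2, 24.9 and 22.3 CPM in WT. Its log2 fold change was -0.03 ± 0.20, with a 95% interval of -0.49 to 0.43. Pcna, the sliding clamp of the DNA polymerases, was at 21.98, 31.1 and 20.7 CPM in Piezo1 GOF and at 24.4, 23.5 and 15.7 CPM in WT (0.21 ± 0.26, interval -0.38 to 0.80). For Rrm1 and Pcna a difference past 2-fold in either direction lies outside the interval.

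The 6 Mcm genes encode the subunits of the replicative helicase, and they did not move together. Mcm6 was the lowest of the 10, with 11.7, 3.91 and 8.53 CPM in Piezo1 GOF replicates 1 to 3, against 8.06, 19.9 and 19.1 CPM in WT replicates 1 to 3. WT replicate 1 lay inside the range of the mutant, so the groups overlapped. The log2 fold change was -0.97 ± 0.46 (edgeR adjusted p = 0.281), and -0.21 with the skeletal muscle score as a covariate. The 2 WT libraries with high Mcm6 were those with the most muscle transcripts, and Piezo1 GOF replicate 2, with the least, had the lowest Mcm6. The part of muscle content in this value was not tested. The muscle share did not overlap between the genotypes, so the fit with the muscle score cannot tell muscle content and genotype apart.

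Mcm4 was on the other side, at 14.7, 23.7 and 22.02 CPM in Piezo1 GOF and at 15.7, 16.5 and 12.4 CPM in WT (0.44 ± 0.26, adjusted p = 0.367). Mcm3 was nearly equal, with 10.01 to 13.6 CPM in Piezo1 GOF and 10.2 to 14.6 CPM in WT (-0.01 ± 0.26). Mcm2, Mcm5 and Mcm7 had log2 fold changes of -0.24 ± 0.57, 0.21 ± 0.54 and -0.05 ± 0.39. Mcm2 and Mcm5 spread widely within the mutant, from 1.30 to 7.64 CPM and from 2.73 to 12.9 CPM, lowest in replicate 1 and highest in replicate 3. Without Piezo1 GOF replicate 3 the Mcm5 value was -0.55.

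Among the enzymes of nucleotide supply, Rrm2, the small and cell cycle-regulated subunit of ribonucleotide reductase, had the highest value of the 10. It was at 7.93, 10.3 and 8.97 CPM in Piezo1 GOF and at 3.76, 9.71 and 4.525 CPM in WT. WT replicate 2 reached the mutant range, and the log2 fold change was 0.58 ± 0.40 (adjusted p = 0.439). It was 1.13 ± 0.35 without WT replicate 2 (adjusted p = 0.297) and 0.34 without WT replicate 1. Tyms, thymidylate synthase, was at 4.42 to 8.63 CPM in Piezo1 GOF and at 3.11 to 6.33 CPM in WT (0.42 ± 0.41).

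Cyclin D genes were far more abundant per length than mitosis genes in both genotypes. Per kilobase of exon, Ccnd2 was at 20.4 ± 1.64 CPM in Piezo1 GOF and 15.4 ± 8.02 CPM in WT, and Ccnd1 at 10.96 ± 3.48 CPM in Piezo1 GOF and 10.9 ± 6.79 CPM in WT (SD, n = 3 each). On the same scale Mki67 was at 0.735 ± 0.805 CPM in Piezo1 GOF and 0.351 ± 0.305 CPM in WT, and Ccne2, a cyclin E gene, at 0.638 ± 0.392 and 0.592 ± 0.188 CPM. Pcna, at 10.2 ± 2.36 CPM per kilobase in Piezo1 GOF and 8.83 ± 1.99 in WT, was the only replication gene near the level of Ccnd1.

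Ccnd2, a D-type cyclin, was at 174.2, 198 and 203 CPM in Piezo1 GOF replicates 1 to 3 and at 173, 59.5 and 202 CPM in WT replicates 1 to 3. WT replicate 2 alone was low, and the other 5 libraries lay between 173 and 203 CPM. Ccnd1 had the same low library, with 52.7, 34.7 and 67.4 CPM in Piezo1 GOF and 66.4, 14.8 and 73.4 CPM in WT. The log2 fold changes were 0.41 ± 0.40 for Ccnd2 and 0.01 ± 0.51 for Ccnd1, and without WT replicate 2 they were 0.03 and -0.44. That library had the highest share of muscle markers (16.4%) and the lowest share of tenocyte markers (0.470%), and the part of tissue content in the cyclin values was not tested. Ccnd1 shares 23.4% of its exonic length with LTO1 on the opposite strand, so reads of the pair may be mixed, although its expected counts were whole in every library.

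Ccnd3, the third D-type cyclin, did not share the low value of WT replicate 2. It was at 42.4, 37.8 and 38.6 CPM in Piezo1 GOF and at 34.0, 43.5 and 27.5 CPM in WT (0.18 ± 0.22, interval -0.33 to 0.68). The cyclin E genes were scarce, with Ccne2 at 0.903 to 3.64 CPM in Piezo1 GOF and 1.66 to 2.83 CPM in WT (0.10 ± 0.60). Ccne1 had 6, 3 and 13 counts in Piezo1 GOF and 7, 0 and 1 counts in WT. On the opposite strand, Ccne2 shares 17.4% of its exonic length with Ints8, and Ccnd3 shares 4.11% with Bysl. Both had counts that were not whole in every library, so their levels are uncertain. E2f1 was at 3.51, 1.40 and 3.78 CPM in Piezo1 GOF and at 1.83, 0.703 and 1.47 CPM in WT. Only Piezo1 GOF replicate 2 lay inside the WT range, and the log2 fold change of 1.14 ± 0.60 did not pass (edgeR adjusted p = 0.321).

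Cdkn2c, the INK4 inhibitor p18 that binds CDK4 and CDK6, had the smallest edgeR p of the 30 tested genes. It was at 7.54, 19.8 and 14.4 CPM in Piezo1 GOF replicates 1 to 3, against 6.12, 5.05 and 3.39 CPM in WT replicates 1 to 3. Every mutant library lay above every WT library, although Piezo1 GOF replicate 1 and WT replicate 1 were close. The means were 13.9 ± 6.12 CPM in Piezo1 GOF and 4.85 ± 1.37 CPM in WT (SD, n = 3 each), a log2 fold change of 1.52 ± 0.40 with a 95% interval of 0.61 to 2.42. It ranked 470 of 13466 genes by p and did not pass over all genes by edgeR (adjusted p = 0.134), while DESeq2 called it (1.49 ± 0.45, adjusted p = 0.0245). Without each library in turn the edgeR adjusted p was 0.0852 to 0.360, and with the skeletal muscle score as a covariate the value was 1.03 ± 0.44 (adjusted p = 0.614). Cdkn2c (ENSMUSG00000028551.14; mm10 chr4:109660876-109667189, minus strand) shares no exonic base with another annotated gene.

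The CIP/KIP inhibitors were among the most abundant of the 38 genes per kilobase, and both had overlapping groups. Cdkn1b, which encodes p27, the inhibitor typical of quiescent cells, was at 67.9, 195.6 and 64.2 CPM in Piezo1 GOF and at 88.8, 72.7 and 48.6 CPM in WT. Piezo1 GOF replicate 2 was high and the other 5 libraries lay between 48.6 and 88.8 CPM. The log2 fold change of 0.64 ± 0.44 was -0.066 without that library, which had the lowest share of muscle markers (2.78%) and the highest share of tenocyte markers (5.61%). The part of tissue content in the Cdkn1b value was not tested. Cdkn1a, which encodes p21, a target of p53, was at 30.8, 27.2 and 27.9 CPM in Piezo1 GOF and at 44.3, 48.4 and 25.7 CPM in WT. WT replicate 3 was the lowest of the 6, so the groups overlapped, and the log2 fold change was -0.46 ± 0.26 (adjusted p = 0.342).

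**Figure D5:**
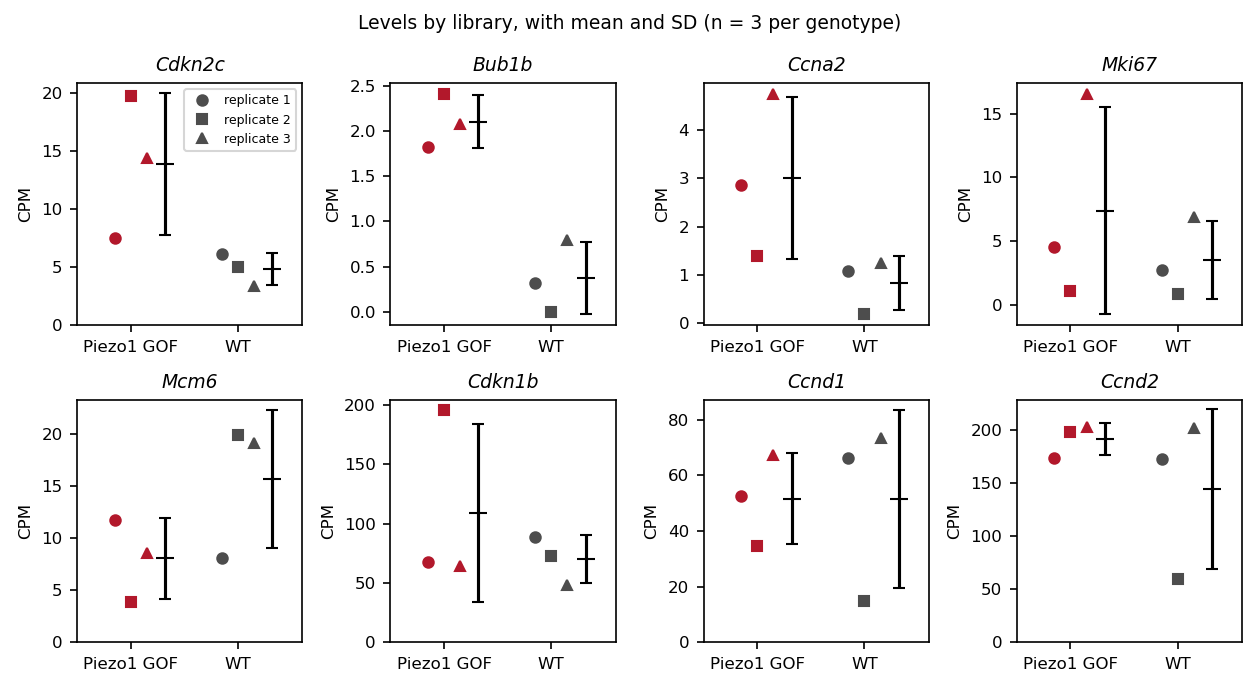
CPM by library for 8 genes, with Piezo1 GOF left of WT, a symbol per replicate number, and the mean and SD in black beside each genotype (n = 3 each). Cdkn2c, Bub1b and Ccna2 do not overlap between the genotypes, Mki67 is highest in Piezo1 GOF replicate 3, Cdkn1b in Piezo1 GOF replicate 2 alone, and Ccnd1 and Ccnd2 are low in WT replicate 2.

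Outside the 38 genes, 187 further genes of the cell cycle in 8 lists were looked up, of which 144 were tested. None passed over all genes by edgeR. At an unadjusted p under 0.05, 9 were higher in Piezo1 GOF and 6 lower, or fewer than the background shares of 10.2% and 9.59% would give. Groups did not overlap for 20 genes that were higher and 8 that were lower, where the background is 13.6% and 12.1%. DESeq2 called 1 higher and 1 lower of the 172 for which it gave an adjusted p, against 5.98% of all genes in either direction. The median log2 fold change of the 144 was 0.09.

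In the list of the anaphase-promoting complex and spindle checkpoint, 22 of 24 genes were tested and 16 had positive values, against 49.7% of all genes. Of the 22, 5 were higher and 0 lower without overlap, beside 13.6% and 12.1% of all genes. Espl1, which encodes separase, the protease that releases sister chromatids, had the smallest p of these lists. It was at 4.42, 3.11 and 3.86 CPM in Piezo1 GOF replicates 1 to 3, against 1.07, 1.02 and 0.792 CPM in WT replicates 1 to 3 (1.96 ± 0.47, adjusted p = 0.117). The WT levels lay close to or under the 1.06 CPM of the filter, so Espl1 passed it through the Piezo1 GOF libraries. A difference in that direction was therefore favoured by the filter. Mad2l1, a checkpoint protein gene, followed at 1.37 ± 0.50 (adjusted p = 0.200).

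In the list of CDK activation and the SCF ubiquitin ligase, 14 of 16 genes were tested, and 11 had positive values, against 49.7% of all genes. Of the 14, 4 were higher and 0 lower without overlap, beside 13.6% and 12.1% of all genes. Cdc25b, a phosphatase that activates CDKs, was at 27.2 ± 4.09 CPM in Piezo1 GOF and 14.2 ± 3.89 CPM in WT (SD, n = 3 each; 0.94 ± 0.26 on the log2 scale, adjusted p = 0.141). Cks1b, a small CDK-binding subunit, was at 9.32 ± 2.60 CPM in Piezo1 GOF and 3.83 ± 1.09 CPM in WT (1.28 ± 0.36, adjusted p = 0.148).

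Among the G1 kinases, pocket proteins, E2F and DREAM genes, 21 of 22 were tested and 6 had positive values, against 49.7% of all genes. Of the 21, 1 was higher and 1 lower without overlap, beside 13.6% and 12.1% of all genes. The 2 genes with the smallest p were on the positive side, the E2F family gene E2f5 (1.16 ± 0.37, adjusted p = 0.171) and the kinase Cdk2 (1.43 ± 0.49, adjusted p = 0.188). Of 20 other CDK inhibitors and p53 arrest genes, 18 were tested, and 2 were higher and 3 lower without overlap, beside 13.6% and 12.1% of all genes. The p53 target Phlda3 was at 67.7 ± 21.2 CPM in Piezo1 GOF and 116 ± 17.5 CPM in WT (-0.78 ± 0.27, adjusted p = 0.190). Ccng1, cyclin G1 and also a p53 target, was at 225 ± 42.8 CPM in Piezo1 GOF and 399 ± 134 CPM in WT (-0.83 ± 0.31, adjusted p = 0.205).

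For the origin recognition and firing genes, 14 of 19 were tested, with a median log2 fold change of 0.06, and the replication licensing factor gene Cdt1 (0.82 ± 0.43) and Mcm9 (0.61 ± 0.34) had the smallest p. For the replication fork and nucleotide supply, 29 of 31 were tested, with a median of 0.18, led by the single-strand binding subunit Rpa1 (-0.47 ± 0.20) and the dUTP pyrophosphatase Dut (1.12 ± 0.51). Only 10 of 37 genes of the kinetochore, spindle and cytokinesis passed the count filter. Of these Sgol2a, a shugoshin that protects centromeric cohesion, was at 2.25 ± 0.41 CPM in Piezo1 GOF and 7.47 ± 4.26 CPM in WT (-1.74 ± 0.47, adjusted p = 0.142), and Anln, anillin of the cleavage furrow, was at 0.80 ± 0.39 on the log2 scale. Among cohesin and condensin genes, 16 of 18 were tested with a median of 0.01. The condensin subunit gene Ncapg2 was at 1.22 ± 0.35 and Mau2, part of the cohesin loader, at -0.53 ± 0.24.

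Genes of the replication-dependent histone clusters did not accompany the mitosis genes in Piezo1 GOF replicate 3. They were taken by symbol, so the list may hold genes not tied to replication, and its sum is not a measure of S phase. The 68 histone genes of the 4 clusters in the table gave 114, 142 and 93.9 CPM without TMM scaling in Piezo1 GOF replicates 1 to 3 and 138, 173 and 141 in WT replicates 1 to 3, so the library with the most mitosis counts had the lowest histone sum. Of these genes 13 were tested, with 3 positive values, against 49.7% of all genes, and 10 negative. The median log2 fold change was -0.61. At an unadjusted p under 0.05, 0 were higher and 1 lower by edgeR, against 10.2% and 9.59% of all tested genes. Without overlap, 0 were higher and 3 lower, beside 13.6% and 12.1% of all genes. DESeq2 called 1 higher and 0 lower of the 26 for which it gave an adjusted p, against 5.98% of all genes in either direction. Hist2h2be was at 2.14 ± 0.31 CPM in Piezo1 GOF and 4.68 ± 0.88 CPM in WT (-1.13 ± 0.41, adjusted p = 0.201), and Hist1h1c at -0.85 ± 0.43. Some histone genes are near-identical copies, so the split of reads between such copies is uncertain.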

How the data were processed

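The authors deposited an expected count (estimated count) per gene for 6 libraries, not scaled for depth or length. The submitters' processing notes name the tools STAR, RSEM, bcl2fastq and edgeR and the build mm10, without versions or roles. Per the labels' protocols, libraries were made from total RNA with a RamDA-seq kit. Neither annotation nor strand setting is given in the sources used here.

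Counts were rounded, filtered with filterByExpr (minimum count 10), scaled by TMM and tested by a two-sided quasi-likelihood F-test of edgeR with Benjamini-Hochberg adjustment over 13466 genes (edgeR 4.0.16, limma 3.58.1, DESeq2 1.42.0, R 4.3.3). Standard errors are Wald errors of that fit, whose intervals use 8.89 degrees of freedom. The chain was tested on simulated counts with changes placed only in genes of higher count, so that test does not cover most of the mitosis genes. No library was a copy of another (chi-square per degree of freedom 38.7 to 133). Coordinates, exonic lengths and overlaps are from GENCODE M21, and promoters from RefSeq. Figures were drawn with matplotlib 3.10.9. The members and lists were chosen with earlier results of these data known. All 38 members are named, in full where groups did not overlap or an unadjusted p was under 0.05, and from each further list the 2 genes with the smallest p. Members shown for a low or high library were chosen after their values were seen. Alternatives covered scaling, filters, other tools, a replicate block, muscle content and each library left out. The mitosis sum without Mki67 and the counts at an unadjusted p per alternative were added after the data were seen.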

Additional observations from a re-analysis of the deposited data

How the results depend on the processing

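The count of members called was 0 higher and 0 lower under every alternative except DESeq2, which called 1 higher (Cdkn2c). The counts over all genes, 2 higher and 0 lower, were 141 and 24 with no filter on low counts, 511 and 371 by DESeq2, 97 and 19 by limma voom with sample quality weights, and 0 higher with the replicate block or with the skeletal muscle score as a covariate. Leaving out each library in turn gave 0 to 164 higher and 0 to 43 lower, with all of these calls made without WT replicate 1. Same-numbered libraries did not deviate together (correlations of -0.21, -0.14 and -0.05, against -0.019 to 0.17 for differently numbered ones). So few values cannot decide whether the replicate numbers pair the libraries, and the main fit treats them as unpaired. The medians over all members and over the mitosis and replication genes moved by less than the spread between replicates (0.34, 0.73 and 0.26) under each alternative. Each spread was larger than its median, so this check could hardly fail. Without Piezo1 GOF replicate 3 the mitosis and replication medians changed sign, to -0.15 and -0.045. The replication median was also -0.0021 without WT replicate 3. With a minimum count of 30 the mitosis value was that of 1 gene (1.12). The median of the 3 inhibitors, 0.64, was -0.25 with the muscle score as a covariate and -0.066 to 0.89 with each library left out. As the muscle share did not overlap between the genotypes, the fit with that score cannot tell muscle content and genotype apart.

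Of the 30 tested members, 13 kept their sign in all alternatives and 17 changed it in at least 1, and no value that changed sign passed the threshold. With RLE scaling factors Ccnd1 was at -0.0022, by DESeq2 at -0.0088, and with Rn45s and Lars2 or the muscle markers removed at -0.012 each, where Plk1 was at -0.00076 and -0.0010. With the muscle score as a covariate, Ccnd1 was at -0.066, Cdkn1b at -0.25, Cenpe at 0.21, Kif11 at 0.23, Mcm7 at 0.43, Pcna at -0.022 and Tpx2 at 1.46. By voom, Cdc20 was at 0.32, Cenpe at 0.25, Mcm3 at 0.11, Mcm7 at 0.17 and Tpx2 at 0.24. With the replicate block Ccne2 was at -0.056 and Cenpe at 0.0041, and with a minimum count of 30 Mcm3 was at 0.0034.

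Leaving out 1 library gave ranges of -0.44 to 0.35 for Ccnd1, -0.41 to 0.50 for Ccne2, -0.86 to 0.13 for Cdc20, -0.066 to 0.89 for Cdkn1b, -0.49 to 0.56 for Cenpe, -0.020 to 2.26 for Cenpf, -0.85 to 0.18 for Mcm2, -0.11 to 0.16 for Mcm3, -0.55 to 0.58 for Mcm5, -0.53 to 0.22 for Mcm7, -0.29 to 2.05 for Mki67, -0.24 to 0.52 for Plk1, -0.12 to 0.025 for Rrm1, -0.069 to 1.30 for Top2a and -0.51 to 0.47 for Tpx2. Without a change of sign, 1 library moved the value by over 1.5 times for Kif11 (-2.93 to -0.12), Rrm2 (0.34 to 1.13), Ccnd2 (0.031 to 0.72), Ccnd3 (0.029 to 0.36), Cdkn1a (-0.69 to -0.29), Kif20a (0.0040 to 1.25), Mcm6 (-1.33 to -0.62), Nusap1 (0.082 to 1.01), Pcna (0.026 to 0.32) and Tyms (0.14 to 0.68). The causes were not tested. Mitosis genes had 22 to 370 counts each over 6 libraries, which limits what could be detected.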
